A study of Mus musculus with 8 samples.

Results

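Cluster 5 of the sorted DN4 thymocytes is a group of mostly non-dividing cells, about 80% of which carry a rearranged αβ T cell receptor. Its members are the cells that the deposited table of cells places in cluster 5 of the WT DN4 and KI DN4 libraries. They number 652 of the 10237 cells in the matrix, 324 in WT and 328 in KI, and 0 lie in the DN3 libraries. The authors' table numbers the cluster and gives it no name. Its label here, mature DN αβ T cells, comes with 6 marker genes (Ccl5, Xcl1, Tigit, Cldn10, Il2rb and Trac), and was set beside the receptor libraries.

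The study sequenced DN thymocytes, which have neither CD4 nor CD8 on their surface, by 5′ single-cell RNA-seq with matched T cell receptor libraries. WT mice were C57BL/6J. KI mice carry a knock-in that changes a serine of the kinase GSK3B to alanine (Ser389Ala). Cells with MHC class II, CD11b, CD4, CD8 or immunoglobulin kappa were removed on magnetic beads in both genotypes, and DN4 cells were then sorted as CD44-negative and CD25-negative. Each genotype gave 1 DN4 expression library and 1 DN4 receptor library. The number, age and sex of the mice behind a library, and whether KI mice carried 1 or both altered alleles, are not given in the sources used here, so genotype, mouse and library preparation cannot be told apart.

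Most DN4 cells have passed β-selection, when a β chain paired with the pre-T-cell receptor α chain drives division before α chain rearrangement. Cells that are negative for both coreceptors and yet carry a complete αβ receptor are a different kind of cell. In the mouse thymus they include agonist-selected cells, which met self ligand, switch off CD4 and CD8, carry PD-1, and can give rise to the CD8αα intraepithelial lymphocytes of the gut. Other αβ T cells in this compartment, such as NKT cells, use an invariant α chain and depend on the transcription factor PLZF (Zbtb16).

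The cluster made up 21.9% of WT DN4 cells (324 of 1477, 95% exact interval 19.8 to 24.1%) and 12.7% of KI DN4 cells (328 of 2577, 11.5 to 14.1%). When the dividing clusters 3, 4 and 7 were left out of the denominator, the shares were 33.7% and 24.4%. Intervals here and below cover counting error only, and with 1 library per genotype no test of the difference was possible. Cluster 5 is compared below with cluster 2 (595 WT and 976 KI cells), where γδ receptor transcripts are high, and with the dividing clusters 3 and 4 together (493 and 1160 cells). The cluster 5 cells were shallow, with a median of 4508 UMIs in WT and 3767.5 in KI, against 5252 and 4297.5 in cluster 2 and 20697 and 19436 in clusters 3 and 4. In all, cluster 5 held 1654223 UMIs in WT and 1413456 in KI. The deposited phase calls placed 308 of 324 WT cells (95.1%) and 292 of 328 KI cells (89.0%) in G1, with 13 and 25 cells in S. Doublet calls marked 1 cell of the cluster in each library, and 1 barcode was shared between the WT and KI cells of the cluster.

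Receptor chains were read in libraries apart from the expression counts, although the count matrix holds receptor genes too and the way the clusters were made is not given in the sources used here. A productive α and a productive β contig (a chain assembled in frame) were found in 260 of 324 WT cells (80.2%, 75.5 to 84.4%) and in 261 of 328 KI cells (79.6%, 74.8 to 83.8%). The same pair was found in 4.71% and 5.94% of cluster 2 cells and in 2.03% and 1.12% of cells in clusters 3 and 4. A β chain alone was found in 9.57% and 10.4% of cluster 5 cells, against 93.1% and 93.8% in clusters 3 and 4. Thus 24 WT cells (7.41%) and 29 KI cells (8.84%) of cluster 5 had neither chain, against 80.8% and 81.0% of cluster 2. Cluster 5 stood apart from the other large DN4 clusters by its complete receptors in both genotypes, and the shares of paired cells in WT and KI had overlapping intervals.

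**Figure D1:**
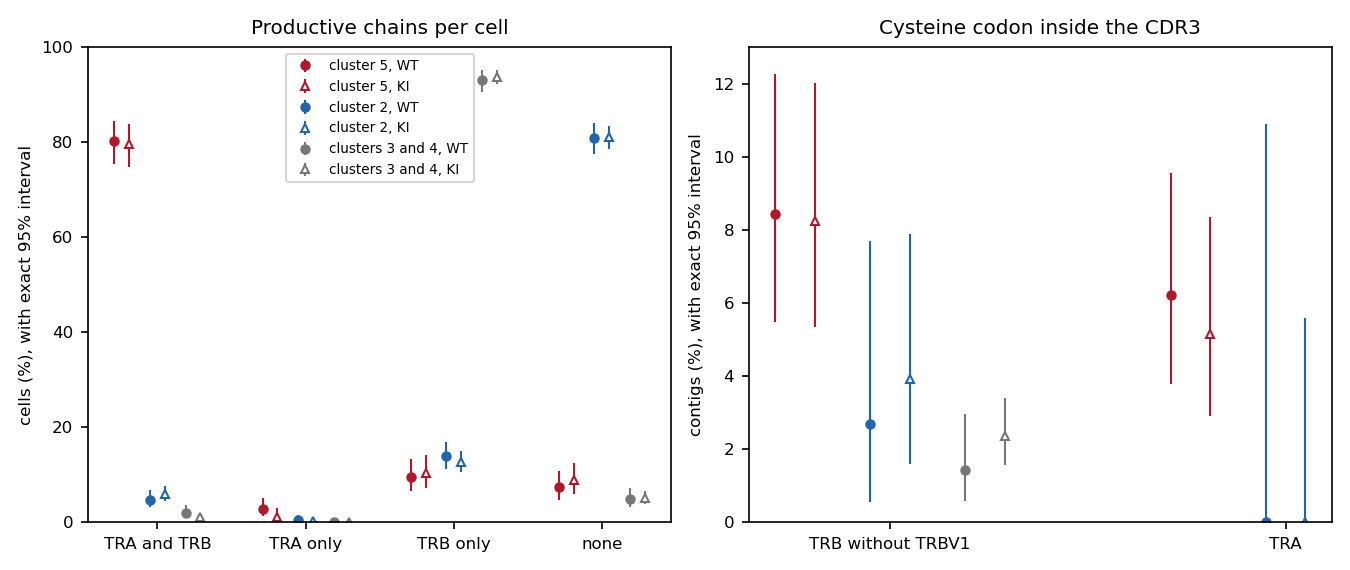
Left, percent of the cells of each DN4 cluster with a productive α (TRA) and β (TRB) pair, 1 chain alone or none; right, percent of contigs with a cysteine codon inside the CDR3, described further on. Points are WT (filled) and KI (open) with exact 95% intervals: about 80% of cluster 5 cells hold a pair, clusters 3 and 4 hold mostly β alone and cluster 2 mostly no chain.

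The receptors were diverse. The 305 WT and 291 KI α contigs used 72 and 75 V genes, and the 302 and 309 β contigs used 21 and 22. By CDR3 nucleotides alone, 302 of 305 α contigs in WT and 289 of 291 in KI were distinct, as were 302 of 302 β contigs in WT and 306 of 309 in KI. In 1 case 2 KI cells shared both chains, TRAV16 with TRAJ48 and TRBV13-1 with TRBJ2-7. Their CDR3 regions (the CDR3 is the stretch across the V and J joint from the conserved cysteine codon) are shown because this was the only pair of chains seen in more than 1 cell of the cluster:

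KI clone, α: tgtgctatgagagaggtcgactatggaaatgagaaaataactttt
KI clone, β: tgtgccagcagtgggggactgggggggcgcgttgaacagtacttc

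The invariant chains of innate-like T cells were nearly absent. The invariant NKT α chain, TRAV11 joined to TRAJ18, was found in 1 of 269 WT cells with an α chain and in 0 of 265 KI cells, where a count of 0 allows a share of up to 1.13% by 3 counts of the total and 1.38% by the exact interval. It was found in 3 of 31 and 9 of 61 such cells of cluster 2. The mucosal-associated invariant chain, TRAV1 joined to TRAJ33, was found in 0 of 269 and 0 of 265 cells. The invariant NKT CDR3 of the WT cell is shown as the reference for that joint:

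WT cell, TRAV11-TRAJ18: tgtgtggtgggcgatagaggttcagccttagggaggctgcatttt

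J segments of the α locus are numbered downwards away from the V genes, so low numbers lie at the far end, which repeated rearrangement reaches last. The median TRAJ number in cluster 5 was 30 in both libraries, with quartiles at 22 and 43 in both. TRAJ30 or lower was used by 154 of 305 WT contigs (50.5%) and 152 of 291 KI contigs (52.2%), spread over 43 and 41 segments. The few α contigs of clusters 3 and 4 had medians of 50 (11 contigs) and 37 (13 contigs). TRAJ22 was among the most used segments in both libraries, with 19 WT and 24 KI contigs, and TRAJ26 was used by 9 WT and 21 KI contigs. TRAJ use in cluster 5 thus ran over both ends of the locus in both genotypes.

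**Figure D2:**
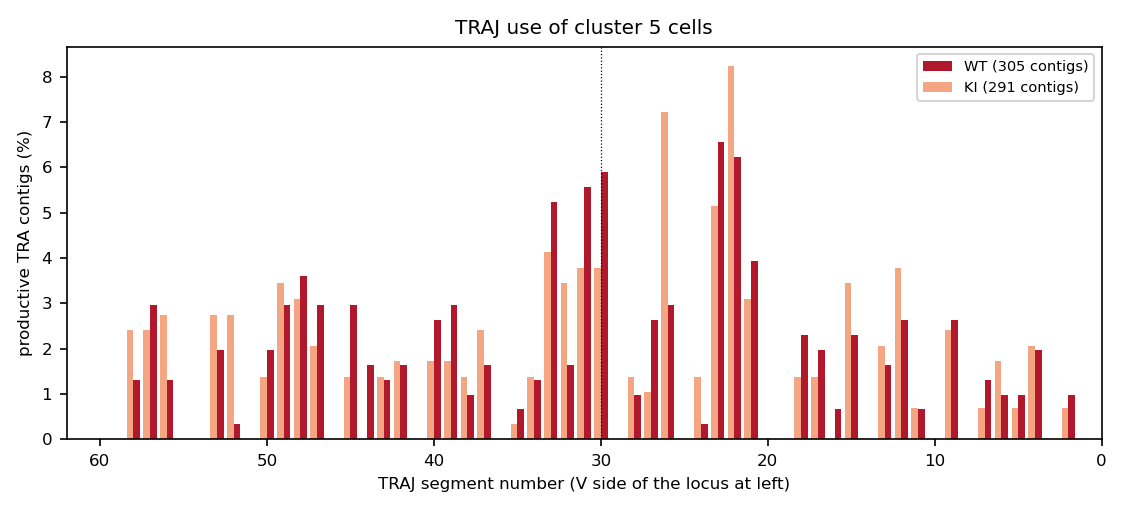
Percent of the productive α contigs of cluster 5 that use each TRAJ segment, ordered by segment number with the V side at left, for WT (305 contigs) and KI (291 contigs). Contigs spread over the locus in both libraries, and the dotted line marks TRAJ30, the median of each.

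Among V families, 5 took similar shares in WT cluster 5: TRAV6 (11.8%), TRAV13 (11.5%), and TRAV7, TRAV12 and TRAV14 (11.1% each). In KI, TRAV12 took 16.5%, TRAV6 13.1%, TRAV7 9.62%, TRAV13 8.93% and TRAV14 8.59%, with intervals that overlapped those of WT. On the β side, TRBV12-2 took 9.27% and 9.39% of contigs in cluster 5, against 6.36% and 4.71% in clusters 3 and 4. TRBV10 took 3.31% and 1.94%, against 7.95% and 5.39%. TRBV15 and TRBV26 also had lower shares than in clusters 3 and 4 in both libraries, at 2.32% and 2.91% for TRBV15 against 5.77% and 4.97%. The intervals of TRBV10, TRBV15 and TRBV26 overlapped between these clusters in both libraries. Those of TRBV12-2 overlapped in WT and not in KI. Contigs labelled TRBV12-2+TRBV13-2, 9.60% and 10.7% of cluster 5 β contigs, were counted apart from TRBV12-2.

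Reading the CDR3 sequences showed an additional cysteine codon (TGT or TGC in frame between the first and the last codon) in many cluster 5 chains. This feature was looked at after the data had been seen. TRBV1 chains were set aside, because the TRBV1 segment itself brings such a codon: its germline CDR3 start is tgcaccTGC, and 35 of 35 TRBV1 contigs of the cluster began so (Trbv1, chromosome 6, 40891229 to 40891885 in GRCm38). Of the other β contigs, 24 of 285 in WT (8.42%, 5.47 to 12.3%) and 24 of 291 in KI (8.25%, 5.36 to 12.02%) held the codon. In clusters 3 and 4 it was held by 7 of 485 (1.44%, 0.582 to 2.95%) and 27 of 1145 (2.36%, 1.56 to 3.41%). The intervals of cluster 5 and of clusters 3 and 4 did not overlap in either library. In cluster 2 it was held by 3 of 111 (2.70%) and 7 of 179 (3.91%), with intervals that overlapped those of cluster 5. The codon was also held by 19 of 305 α contigs in WT (6.23%, 3.79 to 9.56%) and 15 of 291 in KI (5.15%, 2.91 to 8.36%). Cluster 2 had 0 of 32 and 0 of 64 α contigs with it, with exact upper limits of 10.9% and 5.60%, so the intervals of the α chain overlapped those of cluster 5 in both libraries. Counting either chain, 36 of 260 WT cells with a pair (13.8%) and 33 of 261 KI cells (12.6%) held it.

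The α contigs of cluster 5 with most UMIs among those with the codon, 3 per library, are shown with the additional cysteine codon in capitals, 5′ to 3′:

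WT, TRAV6N-7 with TRAJ9: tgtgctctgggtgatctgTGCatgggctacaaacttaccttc
WT, TRAV12-2 with TRAJ38: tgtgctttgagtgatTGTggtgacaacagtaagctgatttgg
WT, TRAV3-3 with TRAJ30: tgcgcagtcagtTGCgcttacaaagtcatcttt
KI, TRAV9D-3 with TRAJ31: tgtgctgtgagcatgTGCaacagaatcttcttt
KI, TRAV14N-3 with TRAJ23: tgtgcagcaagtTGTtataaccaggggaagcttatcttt
KI, TRAV6-7-DV9 with TRAJ39: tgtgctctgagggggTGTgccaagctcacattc

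The β contigs chosen in the same way are shown with the same capitals:

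WT, TRBV13-1 with TRBJ2-4: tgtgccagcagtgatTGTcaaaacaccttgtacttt
WT, TRBV19 with TRBJ2-5: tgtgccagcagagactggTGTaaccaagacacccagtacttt
WT, TRBV13-1 with TRBJ2-7: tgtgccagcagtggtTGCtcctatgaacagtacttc
KI, TRBV12-2 with TRBJ2-4: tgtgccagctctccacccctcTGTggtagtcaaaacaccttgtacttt
KI, TRBV15 with TRBJ1-2: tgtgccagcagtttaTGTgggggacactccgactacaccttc
KI, TRBV12-2 with TRBJ2-7: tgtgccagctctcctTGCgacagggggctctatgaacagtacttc

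The codon stood at codons 5 to 8 of the α CDR3, counted from 1 at the conserved cysteine codon. In the β CDR3 it stood at codons 6 to 10 in WT, with a median of 7, and at codons 3 to 15 in KI, with a median of 8. It occurred with 17 and 14 different α V genes and with 13 and 11 different β V genes, so it was not the property of 1 segment.

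The expression of cluster 5 was summed over its cells in each library and given as CPM, the gene's UMIs per 1000000 UMIs of those cells. All 6 marker genes were higher in cluster 5 than in the other cells of the library and than in cluster 2, in WT and in KI. The clusters may have been made from the counts of these genes, so the comparisons describe the cluster and test nothing. Ccl5, a chemokine that draws lymphocytes, stood at 230 CPM in WT and 237 in KI, against 1.88 and 5.08 in cluster 2. The tight-junction protein gene Cldn10 stood at 200 and 157 CPM against 1.88 and 3.12, which is 106-fold and 50.3-fold higher. Xcl1, a chemokine that attracts cross-presenting dendritic cells, stood at 103 and 151 CPM against 0.807 and 1.76. Tigit, an inhibitory receptor, stood at 149 and 105 CPM against 5.11 and 5.47. Il2rb, the receptor chain shared by interleukins 2 and 15, stood at 554 and 556 CPM against 69.7 and 78.9. Trac, the α chain constant region, stood at 325 and 258 CPM against 101 and 107, the smallest of the 6 differences.

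**Figure D3:**
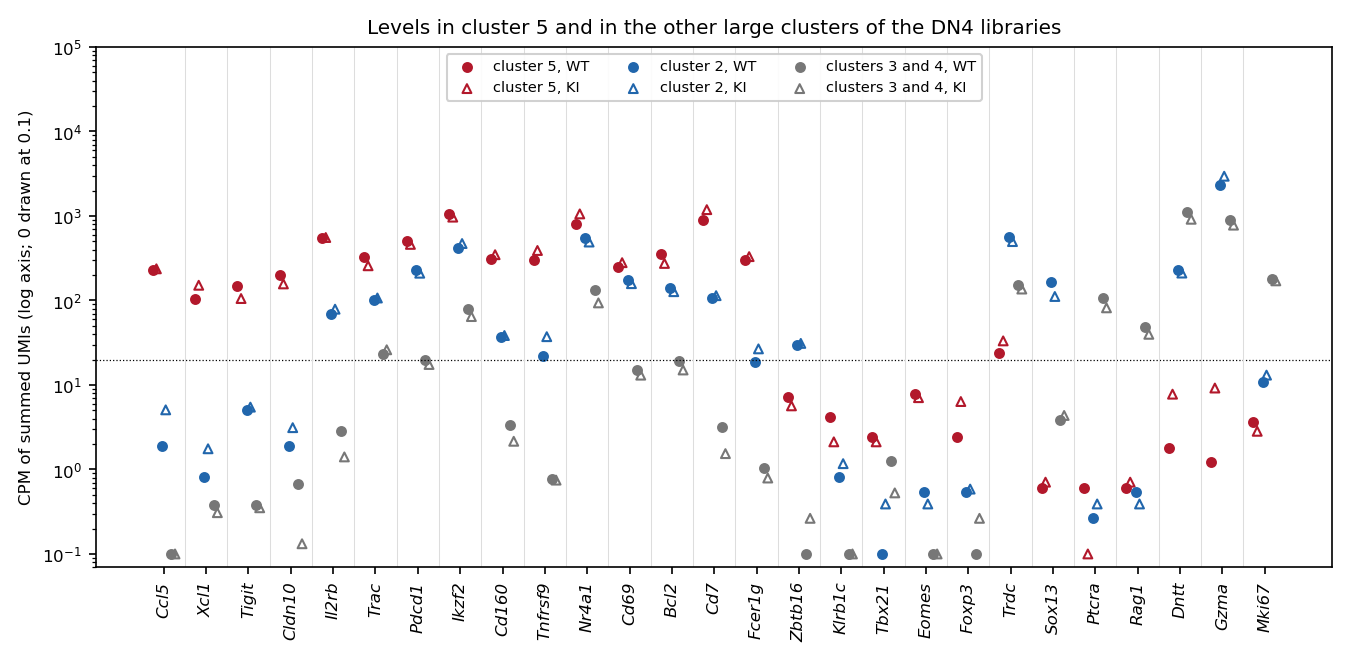
CPM of the 6 markers and of further genes named in the text in cluster 5, cluster 2 and clusters 3 and 4, for WT and KI, on a log axis where 0 is drawn at 0.1 and the dotted line marks 20 CPM. The 6 markers lie above the other clusters in both libraries, and Trdc, Sox13, Dntt and Gzma lie below cluster 2.

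Over all genes with at least 20 CPM in cluster 5 or in the other cells, 789 of 6035 (13.1%) were at least 2-fold higher in cluster 5 in both libraries and 516 (8.55%) at least 2-fold lower. Scaling by trimmed means moved all log2 ratios by -0.34 in WT and -0.33 in KI, and gave 468 higher and 881 lower. With only G1 cells on both sides, 297 were higher and 266 lower, of which 239 and 95 were among the 789 and 516. Against cluster 2, which is closer in depth and division, 270 of 5976 genes (4.52%) were higher and 265 (4.43%) lower. The highest folds over the other cells, beside the markers, included inhibitory and NK-type receptors. Lag3, an inhibitory receptor that binds MHC class II, stood at 87.7 CPM in WT and 64.4 in KI, against 1.08 and 1.03 in the other cells. Klrb1a, a lectin-like receptor of the NK gene complex, stood at 122 and 141 against 1.69 and 1.69. Fcer1g, a signal adaptor of NK cells and of some unconventional T cells, stood at 297 and 330 against 8.06 and 10.2. Trpm1 (252 and 244 CPM), a cation channel gene whose intron holds a microRNA gene, and the muscle genes Myl1 (68.3 and 51.6) and Eno3 (321 and 238) were also among the 20 leading genes, as were Lysmd2, Prr5l, Lgals3, Myo1e, Rgs16, Art2b, Rhob and Pglyrp1.

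Genes of agonist selection and strong receptor signals, a list that holds the marker Tigit, were high. Of 26 measured genes of that list, 14 were at least 2-fold higher than in cluster 2 in both libraries and 1 was lower (Sh2d1a). Over all genes 4.52% were higher and 4.43% lower. The median log2 ratio of the list was 1.15 in WT and 1.18 in KI, against 0.06 and 0.02 over all genes. Pdcd1, which encodes PD-1, stood at 512 and 461 CPM against 229 and 210 in cluster 2. Ikzf2, which encodes the transcription factor Helios, stood at 1059 and 969 against 422 and 472. Tnfrsf9, which encodes the costimulatory receptor 4-1BB, stood at 303 and 391 against 21.8 and 37.3. Egr1, an immediate early gene of receptor signalling, stood at 329 and 327 against 112 and 55.6, and its corepressor Nab2 at 137 and 138 against 45.5 and 49.6. Nr4a1, which encodes Nur77, stood at 800.4 and 1058 CPM, 1.45-fold higher than in cluster 2 in WT and 2.15-fold in KI, so it passed 2-fold in KI and not in WT.

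The list for precursors of CD8αα intraepithelial lymphocytes is not separate from the agonist selection list. It holds the marker Il2rb, and Pdcd1, Nr4a1, Ikzf2 and Tnfrsf9 are in both. Of its 8 measured genes, 5 were higher than in cluster 2 in both libraries, against 4.52% of all genes. Among the 5 was Cd160 (311 and 348 CPM against 36.6 and 38.5), a receptor of intraepithelial lymphocytes and NK cells. The median log2 ratio of the 8 genes was 1.25 and 1.12. Other members of the list lay near 0 in cluster 5. Tbx21, which encodes T-bet, stood at 2.42 and 2.12 CPM, Klrk1 at 0 and Cxcr3 at 2.42 and 1.41. Itgae, the integrin chain that binds epithelial cadherin, was the 1 member lower than in cluster 2, at 15.7 and 24.8 CPM against 56.0 and 49.6. Bcl2, a survival gene, stood at 352 and 275 CPM against 140 and 127 in cluster 2.

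The coreceptor genes were low, as in the sort: Cd4 stood at 6.65 and 6.37 CPM, Cd8a at 9.07 and 12.03 and Cd8b1 at 7.25 and 7.07. Cd44 gave 3 and 4 UMIs and Il2ra, which encodes CD25, 0 and 1. The CD3 genes were at the level of cluster 2, with Cd3e at 1502 and 1517 CPM against 1461 and 1337. Cd247, the receptor's ζ chain, was lower, at 278 and 309 CPM against 1006 and 885, and so was the adaptor Lat, at 408 and 387 against 1230 and 979. The β chain constant genes Trbc1 and Trbc2 were both lower than in cluster 2 in both libraries. A productive β contig was nonetheless found in 89.8% and 89.9% of cluster 5 cells, against 18.7% and 18.6% in cluster 2. These genes are near-identical copies and reads of 1 can be assigned to the other. How reads that match both copies were counted, and any part of that in these values, was not tested.

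Thy1, the surface glycoprotein used to recognise mouse T cells, was 67.8-fold lower than in cluster 2 in WT and 43.4-fold lower in KI. It stood at 23.6 and 33.3 CPM against 1599 and 1444. A Thy1 UMI was found in 5.86% of WT and 5.18% of KI cells of cluster 5, against 93.6% and 91.1% in cluster 2, and after each cell was thinned to 2000 UMIs in 2.90% and 3.48% against 84.4% and 83.3%. Thy1 transcripts were thus rare in cluster 5 also when both clusters were read at the same depth. Cd7, another receptor of T and NK cells, went the other way, at 906 and 1189 CPM against 108 and 114.

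Markers of the other cells that a DN4 gate can hold were examined next. Over all genes, 4.52% were higher than in cluster 2 and 4.43% lower. The γδ T cell genes summed to 126 CPM in WT and 144 in KI, against 2626 and 2107 in cluster 2, and 10 of 10 measured ones were lower than there. Trdc, the δ constant region, stood at 24.2 and 33.3 against 567 and 498, and Sox13, a transcription factor of interleukin-17-producing γδ cells, gave 1 UMI in each library. The NKT cell genes summed to 812 and 782 CPM against 234 and 251 in cluster 2, and Il2rb gave most of the sum in cluster 5. Of 6 measured, 1 was higher than in cluster 2 (Il2rb) and 1 lower (Zbtb16, at 7.25 and 5.66 against 29.3 and 31.0), and Il4 was at 0. The regulatory T cell genes summed to 147 and 177 CPM against 99.5 and 92.2, and the 1 measured member, Tnfrsf18, a costimulatory receptor, was higher at 125 and 158 against 58.6 and 67.7, while Foxp3, the lineage factor, stood at 2.42 and 6.37. The genes of NK and innate lymphoid cells summed to 462 and 460 CPM against 364 and 280 in cluster 2, most of it Fcer1g, Gata3 and Kit, with Eomes at 7.86 and 7.07 and Klre1 at 0.605 and 1.41. The genes of mature conventional T cells summed to 566 and 573 CPM, against 1066 and 1176 in cluster 2. Of 5 measured, 0 were higher than in cluster 2 and 2 lower, with a median log2 ratio of -0.96 in WT and -1.19 in KI. Against clusters 3 and 4, 3 of 4 measured were higher and 1 lower, where 21.2% of all genes were higher and 11.1% lower. The word mature in the label was thus not borne out by this list against cluster 2. Among genes of DN3 cells, Ptcra, the pre-T-cell receptor α chain, gave 1 and 0 UMIs and Rag1 1 and 1. The 10 genes of cycling cells summed to 36.3 and 63.7 CPM. Of these, 10 of 10 were lower than in the other cells of the library, against 8.55% of all genes. Ccnb1 was nonetheless higher than in the other cells in KI (log2 ratio 2.99) when only cells called G1 were compared.

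Of the markers of cells that the bead depletion targets, B cell genes summed to 156 and 137 CPM, against 457 and 396 in cluster 2, and myeloid and dendritic cell genes to 161 and 167, against 141 and 154, with 4 of them at 0.

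For the lists that follow, 4.52% of all genes were higher than in cluster 2 and 4.43% lower by the same rule. Among lineage transcription factors, 2 of 22 measured genes were higher than in cluster 2 (Ikzf2 and Ikzf3, which encodes Aiolos) and 8 were lower. Gata3, a factor of T cell development, stood at 76.8 and 58.7 against 337 and 245. Bcl11b, a T lineage commitment factor, stood at 45.3 and 37.5 against 284 and 228. Of 13 measured cytokine receptor genes, 2 were higher (Il2rb and Il6st) and 4 were lower, among them Ifngr1 and Ifngr2, the chains of the interferon-γ receptor. Of 17 measured AP-1 and immediate early genes, 4 were higher (Fosb, Ier2, Zfp36 and Zfp36l1) and 0 lower. Of 16 measured interferon response genes, 0 were higher and 6 lower, with Ly6e at 453 and 479 CPM against 1666 and 1924.

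Against cluster 2, measured genes of exit and homing were lower or did not reach 2-fold higher in both libraries. Ccr9, the receptor for the gut and thymus chemokine CCL25, stood at 33.9 and 25.5 CPM against 1170 and 995 in cluster 2. Of 14 measured homing genes, 0 were at least 2-fold higher than in cluster 2 in both libraries and 5 were lower. The shares over all genes were 4.52% and 4.43%. Against clusters 3 and 4, 8 of 11 measured homing genes were higher and 1 lower, where 21.2% and 11.1% of all genes were. Against the other cells of the library, 6 of 12 were higher and 3 lower, where 13.1% and 8.55% of all genes were. Klf2, a transcription factor of thymic exit, stood at 372 and 403 CPM against 211 and 335. Gzma, a granzyme gene, was at 2 UMIs in WT and 13 in KI, 1.21 and 9.20 CPM, against 2312 and 2955 CPM in cluster 2.

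Cluster 5 cells were unlike each other. Ccl5 came from few cells: 31 of 324 WT cells (9.57%) and 32 of 328 KI cells (9.76%) held the 380 and 335 UMIs, and the share was 0.168% in WT cluster 2. Xcl1 was held by 28 WT cells (8.64%) and 42 KI cells (12.8%). Other genes were broad. After thinning, which left out 14 WT and 41 KI cells, an Ikzf2 UMI was found in 74.5% of WT and 85.0% of KI cells, a Nr4a1 UMI in 62.6% and 72.5%, a Pdcd1 UMI in 54.2% and 48.1% and an Il2rb UMI in 52.6% and 58.2%.

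The cluster fell into 3 sub-clusters, numbered here and not named. Their genes were used to form them and are given as a description. Sub-cluster 1 (89 WT and 88 KI cells) was high in Itm2a, at 1360 CPM in WT and 1320 in KI against 286 and 258 in sub-cluster 2 and 86.0 and 102 in sub-cluster 3. It also had the highest Lef1 and Cd5, and Ccr9 at 110 and 70.0 CPM. Sub-cluster 2 (136 and 104 cells) had the highest Pdcd1, at 715 and 572 CPM, the highest Prr5l, at 195 and 200, and the highest Isg15, an interferon-induced gene, at 153 and 116. Sub-cluster 3 (99 and 136 cells) held most of the Ccl5, at 646 and 397 CPM against 0 and 43.3 in sub-cluster 1, and most of the Fcer1g, at 800 and 605 against 0 and 3.33. It was also highest in Cd7 (2136 and 1983 CPM), Nkg7 (735 and 511), S100a6 (258 and 139) and Il2rb (871 and 747).

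Across the 3 sub-clusters Il2rb ran from 96.6 to 598 to 871 CPM in WT and from 167 to 495 to 747 in KI, while Ikzf2 ran over a narrower range, 1039, 1221 and 897 CPM in WT. Cells with a receptor pair made up 85.4%, 77.9% and 78.8% of the sub-clusters in WT and 79.5%, 76.9% and 81.6% in KI, so receptor pairs were found throughout. The share in G1 was lowest in sub-cluster 3, at 87.9% and 80.1%, and its cells were the deepest, with medians of 5211 and 4936.5 UMIs. Sub-cluster 2 was 42.0% of the WT cells and 31.7% of the KI cells, and sub-cluster 3 was 30.6% and 41.5%. The genes that form the sub-clusters differ between WT and KI in part, so these shares are values and not a comparison.

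**Figure D4:**
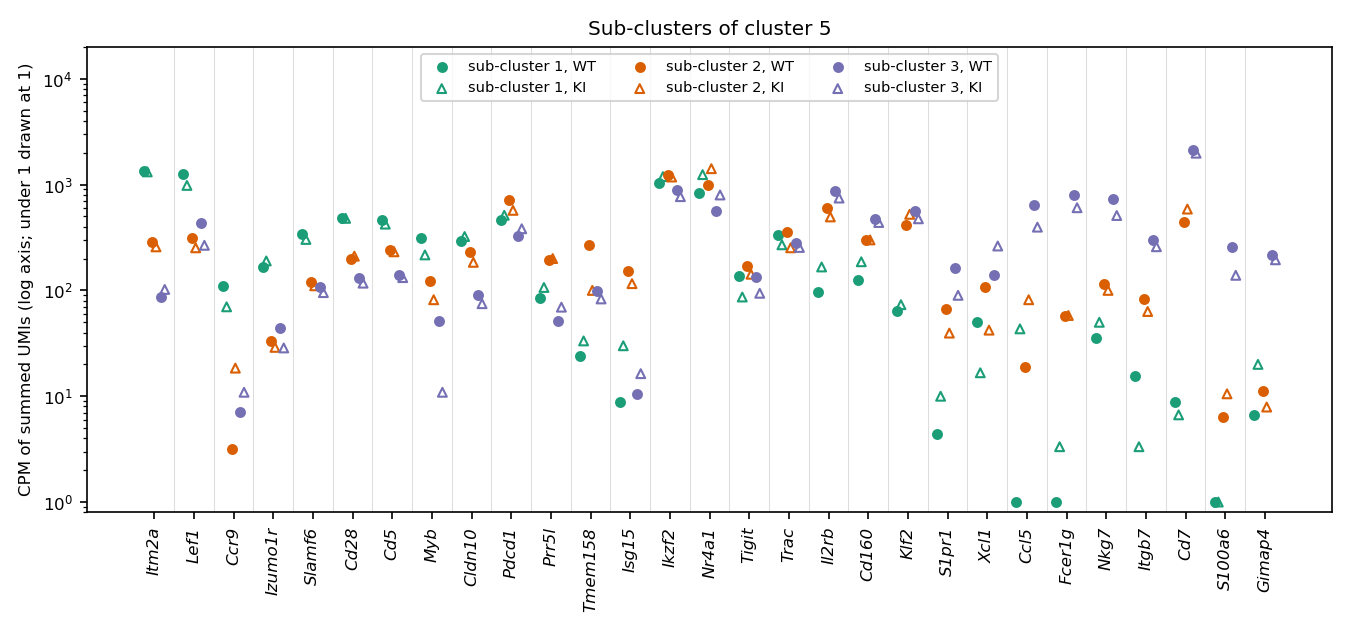
CPM of genes named in the text in sub-clusters 1, 2 and 3 of cluster 5, for WT (filled) and KI (open), on a log axis where values under 1 are drawn at 1. Itm2a and Lef1 are highest in sub-cluster 1, Pdcd1 and Isg15 in sub-cluster 2, and Ccl5, Fcer1g and Cd7 in sub-cluster 3, in both libraries.

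The cells without a productive chain, 24 in WT and 29 in KI, differed in expression from the 260 and 261 cells with a pair. A Trdc UMI was found in 13 of 24 and 14 of 29 of them, against 3 of 260 and 6 of 261 cells with a pair. Summed over the cells, Trdc stood at 301 CPM in WT against 2.18 and at 248 in KI against 8.70. The γ constant gene Tcrg-C1 stood at 97.3 against 6.54 and 197 against 9.57. Eomes, a factor of NK and memory T cells, stood at 79.6 against 2.91 and 59.8 against 1.74. Cldn10 went the other way, at 53.1 against 214 and 25.6 against 167, as did Xcl1, at 26.5 against 116 and 42.7 against 171. Of the other markers, Ccl5 was higher in the WT cells without a chain (log2 ratio 0.89, 0.38 to 1.36) and had an interval that included no difference in KI, and Tigit, Il2rb and Trac had such intervals in both libraries. The label αβ T cell was therefore met by the receptors of the large majority, while δ and γ transcripts were high in these cells.

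KI was set against WT within cluster 5 to ask what the altered kinase goes with in these cells. Of the 6210 genes that reached 20 CPM in WT or KI, 115 (1.85%) were at least 2-fold apart with an interval that excluded no difference, 24 higher in KI (0.386%) and 91 lower (1.47%). The median log2 ratio over all genes was -0.05. Since there was 1 library per genotype, these are differences between libraries and no p-value was given. T cell receptor and immunoglobulin genes made up 4 of the 24 and 15 of the 91, and histone genes 4 of the 91. The same rule gave 49 of 5919 genes (0.828%) in cluster 2, with 0.186% higher and 0.642% lower, and 25 of 5149 (0.486%) in clusters 3 and 4, with 0.0583% higher and 0.427% lower, where depth differs. Of the 91 lower genes, 50 were measured in cluster 2 and 11 were lower there too, which is 28.9% of its 38 lower genes. In clusters 3 and 4, 30 were measured and 10 were lower, 45.5% of the 22 lower genes there. The comparisons of clusters come from the same 2 libraries, so they are not independent.

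The 6 markers of the cluster were less than 2-fold apart between the genotypes. Ccl5 had a log2 ratio of 0.05 (-0.17 to 0.26) and Il2rb of 0.01 (-0.13 to 0.15). Xcl1 was higher in KI by 0.56 (0.26 to 0.86) over the whole cluster, with UMIs in 28 WT and 42 KI cells. The sub-clusters described above did not all go this way. Xcl1 was higher in KI in sub-cluster 3, at 139 CPM in WT and 263 in KI. It was lower in KI in sub-cluster 1, at 50.5 and 16.7, and in sub-cluster 2, at 108 and 42.2. Tigit had a log2 ratio of -0.50 (-0.80 to -0.20), Cldn10 of -0.35 (-0.60 to -0.10) and Trac of -0.34 (-0.53 to -0.14).

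The targeted gene itself was not lower or higher by 2-fold. Gsk3b gave 216 UMIs in WT and 157 in KI, a log2 ratio of -0.23 (-0.54 to 0.07). The knock-in changes a codon, so the transcript count of Gsk3b does not check the labels. Its paralog Gsk3a gave 47 and 20 UMIs, a log2 ratio of -1.01 (-1.84 to -0.22), against -0.42 in cluster 2 and -0.06 in clusters 3 and 4. Map2k6, a kinase that activates p38, gave 62 and 26 UMIs, -1.03 (-1.75 to -0.34), against -0.05 and 0.13. Ctnnb1, which encodes the GSK3 target β-catenin, had a ratio of -0.20 (-0.52 to 0.11). Gsk3a and Map2k6 were the 2 of 11 measured genes of the GSK3, p38 and β-catenin list that were lower in KI, and 0 were higher. Over all genes 1.47% were lower and 0.386% higher by the same rule. The median of the list was -0.57, against -0.05 over all genes. In cluster 2 the median of the list was -0.21, and in clusters 3 and 4 it was -0.15. The partners of β-catenin Tcf7 and Lef1 had ratios of -0.58 and -0.57.

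Some of the genes farthest below WT were lower in KI in the other DN4 clusters as well. Gm47283, a predicted gene that the annotation places on chromosome Y, gave 73 UMIs in WT and 2 in KI, a log2 ratio of -4.96 (-8.04 to -3.06). Its ratio was -4.27 in cluster 2 and -4.63 in clusters 3 and 4. Apobec3, a cytidine deaminase that restricts retroviruses, gave 295 UMIs in 156 WT cells and 58 UMIs in 51 KI cells, -2.12 (-2.55 to -1.71), against -1.46 and -2.16. Cd96, an adhesion receptor of T and NK cells that shares a ligand with TIGIT, gave 226 and 92 UMIs, -1.07 (-1.44 to -0.71), and was farther apart in cluster 2, at -2.05, and in clusters 3 and 4, at -4.10. In all, 6 genes were lower in KI by this rule in cluster 5, cluster 2 and clusters 3 and 4 (Apobec3, Cd96, Gm47283, Hist1h1a, Rpl10-ps3 and Trbv4), and 1 was higher, the predicted gene Gm28727.

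Cd96 lies 7.79 Mb from Gsk3b on chromosome 16, and other genes that were apart lie nearby. Arhgap31, which turns off the small GTPases CDC42 and RAC1, lies 0.352 Mb from Gsk3b and gave 132 UMIs in 97 WT cells against 9 UMIs in 9 KI cells, a log2 ratio of -3.65 (-4.81 to -2.68). Plcxd2, a phospholipase-like gene 7.71 Mb away, gave 192 and 33 UMIs, -2.31 (-2.89 to -1.78). Cd200, a ligand that restrains myeloid cells, lies 7.14 Mb away and gave 91 and 136 UMIs, 0.81 (0.41 to 1.21), against 0.68 in cluster 2 and 3.23 in clusters 3 and 4. Tigit lies 5.40 Mb away. Whether sequence around the knock-in differs from C57BL/6J, and any part of that in these ratios, was not tested.

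Further genes far below WT differed in how they stood in the other clusters. Zkscan6, a zinc finger gene, gave 36 and 7 UMIs, -2.14 (-3.55 to -0.95), against 0.05 in cluster 2 and -0.18 in clusters 3 and 4. St6galnac3, a sialyltransferase, gave 64 and 4 UMIs, -3.77 (-5.69 to -2.35), against -3.18 and -0.74. The interferon-inducible Ifi208 gave 64 and 14 UMIs, -1.97 (-2.92 to -1.12), against -1.78 in cluster 2. Usp18, which restrains interferon signalling, was the 1 of 14 measured interferon response genes that was lower in KI, against 1.47% of all genes. It gave 36 and 12 UMIs, a log2 ratio of -1.36 (-2.44 to -0.38), against -0.09 in cluster 2. Of its 36 UMIs in WT, 34 lay in sub-cluster 2, against 9 of 12 in KI. At a finer resolution of 0.8, Usp18, Ifit1, Isg15, Ifi213, Ifi208, Zeb2 and St6galnac3 were among the leading genes of 1 group that held 39 of the 324 WT cells and 16 of the 328 KI cells (4.88%). The part of this uneven group in the ratios of Ifi208, Usp18 and St6galnac3 was not tested. Myb, a transcription factor of early thymocytes, had a log2 ratio of -1.03 and was lower in KI in 3 of 3 sub-clusters. Zkscan6, St6galnac3, Arhgap31, Plcxd2, Cd96, Apobec3, Gsk3a and Map2k6 were also lower in KI in 3 of 3 sub-clusters. The differences between clusters in the ratios of these genes were not tested.

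**Figure D5:**
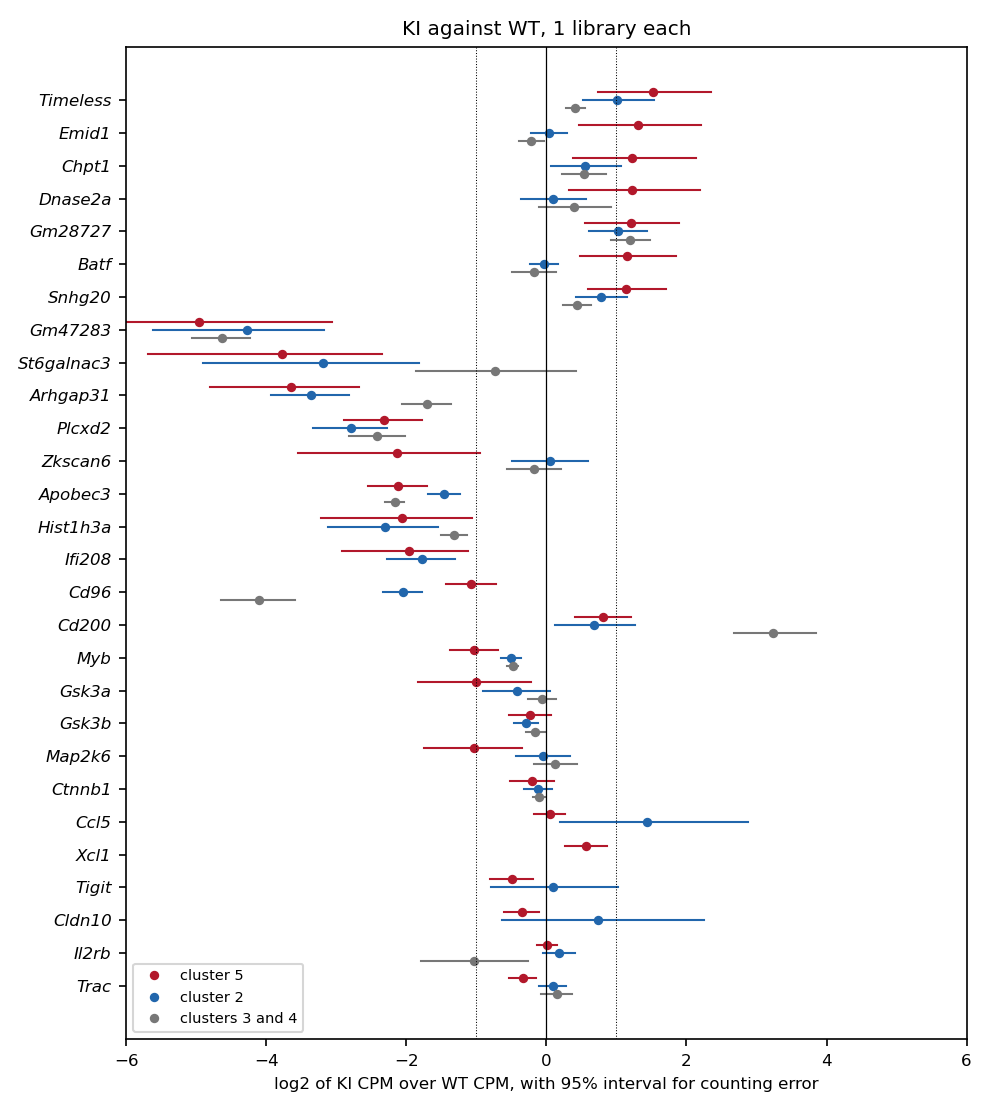
Log2 ratio of CPM in KI over WT with its counting interval for the 16 genes named by size of difference, the 6 markers and further genes of the text, in cluster 5, cluster 2 and clusters 3 and 4. Dotted lines mark 2-fold, and points resting on few UMIs are left out. Cd96, Apobec3 and Gm47283 lie below 0 in all 3, while Zkscan6, Gsk3a and Map2k6 lie farthest below 0 in cluster 5. Bik, with 0 UMIs in WT, is not drawn.

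Genes higher in KI were fewer. Bik, a BH3-only gene that promotes cell death, gave 0 UMIs in WT and 31 in KI, 1 in each of 31 cells, and was at least 12.1-fold higher when WT was set to 3 counts. Timeless, a gene of replication fork stability, gave 20 and 49 UMIs, a log2 ratio of 1.52 (0.74 to 2.35), with 35 of the 49 KI UMIs in sub-cluster 3. Tyms, Uhrf1, Prim1 and Chaf1b, other genes of DNA replication and its chromatin, were also among the 24. The share of cells in S was larger in KI, and with only G1 cells the ratio of Timeless was 1.89, of Tyms 1.36 and of Uhrf1 1.09. Of the 24 higher genes, 14 were called with G1 cells alone. Batf, an AP-1 family factor, gave 29 and 55 UMIs, 1.15 (0.48 to 1.85), against -0.04 in cluster 2 and -0.17 in clusters 3 and 4. Emid1 gave 18 and 38 UMIs, 1.30 (0.46 to 2.20), and the RNA gene Snhg20 44 and 83 UMIs, 1.14 (0.60 to 1.70). Tcrg-C1 was the 1 of 5 measured γδ genes that was higher, against 0.386% of all genes. It gave 20 and 37 UMIs, beside 24 and 29 cells without an αβ chain.

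By list, the agonist selection and immediate early genes were not called 2-fold apart. Of 26 measured agonist selection genes 0 were higher and 0 lower by 2-fold, against 0.386% and 1.47% of all genes. A count of 0 among 26 is near those shares. The list had 4 intervals above and 10 below no difference and a median of -0.22. Over all 6210 measured genes, 407 intervals were above and 692 below, with a median of -0.05. An interval narrows as a gene's UMIs rise, and the list was not matched to all genes by UMIs. The counts of intervals therefore give no comparison of the list with all genes. Nr4a1 had a ratio of 0.40 (0.30 to 0.51) and Tnfrsf9 of 0.37. Of 17 measured AP-1 and immediate early genes 0 were 2-fold apart, which is near the 1.85% of all genes in either direction. In that list 4 intervals were above and 7 below no difference. Jun had a ratio of 0.66 and Nfkbia of 0.49. Fos had a ratio of -0.12 in cluster 5 and -1.23 in cluster 2, Junb of -0.25 and -1.13, and Egr1 of -0.01 and -1.01. Over the 16 measured lineage transcription factors the median was -0.25, and Foxo1, an activator of exit genes, had a ratio of -0.57. The 8 measured genes of the CD8αα precursor list had a median of 0.15, with 2 intervals on either side of no difference.

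Receptor gene counts can be set by few cells. Trbv17 gave UMIs in 13 WT and 4 KI cells of the cluster, up to 43 in 1 cell, and had a log2 ratio of -2.52. Trav12-3 gave 1 UMI in WT and 50 in KI, from 11 KI cells. The contigs went the same way, with TRAV12-3 in 1 of 305 WT and 7 of 291 KI contigs. These genes were counted among the 115 and are not named for size.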

How the data were processed

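Expression was measured by 10x 5′ single-cell RNA-seq, and T cell receptors in matched libraries. The authors deposited raw UMI counts for 15653 genes and 10237 cells with no normalisation, and a table that gives each cell's library, cluster number (0 to 9) and phase, with no method stated in the sources used here. Cell Ranger 3.1.0 and 6.0.1 and the build mm10 were used, per the submitters' processing notes. Which version made which file is not given in the sources used here. The deposited receptor contig tables hold read and UMI counts per contig, per the file headers, and were joined to cells by barcode. Of the receptor barcodes, 21 of 930 in WT and 42 of 1658 in KI were not in the matrix.

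The members and gene lists were chosen with earlier results of these data known. UMIs were summed over the cluster's cells and divided by the sum over all genes (CPM). Genes with at least 20 CPM on either side were kept, and ratios were given with the exact conditional binomial (Poisson) interval at 95% confidence. Shares had exact binomial (Clopper-Pearson) intervals. These cover counting error only. Identity calls needed at least 2-fold in the same direction in both libraries, and calls of KI against WT at least 2-fold with an interval that excluded no difference. Against 0 UMIs a floor of 3 counts per library was used, and the share that a count of 0 allows is 3 counts of the total unless called exact. With 1 library per genotype there is no test, and cells were not taken as replicates. Genes named were the 20 highest and 10 lowest by fold against the other cells at 50 CPM or more, the 8 highest and 8 lowest of KI against WT (without receptor, immunoglobulin, ribosomal protein, mitochondrial and 6 listed sex-linked genes), and members of 29 lists. Genes outside that rule, among them Thy1, Cd7, Myb, Usp18, Prim1, Chaf1b and the leading genes of the sub-clusters, were chosen after their values were seen. Gm47283, placed on chromosome Y by the annotation, is not among those 6 and is in a list.

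No cell was removed. Doublets were called with Scrublet in scanpy 1.11.5 (1.35% of WT and 1.71% of KI DN4 cells) and left in. Sub-clusters came from Leiden clustering of the cluster's cells at resolution 0.4 on 1500 variable genes and 20 principal components. Trimmed-mean scaling used edgeR 4.0.16 in R 4.3.3. Genes were placed on GRCm38 (mm10) by symbol with GENCODE vM21. The steps were tested on simulated counts. The split of cells by the invariant NKT chain was not made, since it needed 10 cells per library. The deposited clonotype tables were not used here.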

Additional observations from a re-analysis of the deposited data

Results flagged for a closer look

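Trbv17, a β chain variable gene, had a log2 ratio of KI over WT of -2.52 in cluster 5 and of 1.09 in cluster 2, so the gene went opposite ways between the genotypes in these clusters. The difference between the clusters was not tested. In cluster 5 its UMIs came from 13 WT and 4 KI cells, and TRBV17 contigs made up 3.64% of β contigs in WT and 0.65% in KI.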

How the results depend on the processing

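No paired analysis was possible because each genotype has 1 DN4 library of each kind, and for the same reason no replicate could be left out. The number of genes apart moved with the thresholds. Against the other cells of the library, 789 genes were higher and 516 lower. The counts were 432 and 331 with a minimum of 50 CPM, 2251 and 2421 with no minimum, 1444 and 984 at 1.5-fold, and 468 and 881 after trimmed-mean scaling. With each cell weighted equally, 440 were higher. With only cells in G1 on both sides, an alternative chosen after seeing the data, 297 were higher and 266 lower, of which 239 and 95 were among the 789 and 516.

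For KI against WT in cluster 5 (24 higher, 91 lower) the counts were 55 and 213 at 10 CPM, 2 and 14 at 50 CPM, 86 and 279 with no minimum, 127 and 351 at 1.5-fold and 39 and 140 over cells with a receptor pair alone. They were 44 and 145 with a total that left out receptor, ribosomal protein and mitochondrial genes, and 41 and 70 after trimmed-mean scaling. With only G1 cells they were 34 and 113, of which 14 and 76 were among the 24 and 91, and with each cell weighted equally 26 and 128, of which 13 and 63 were. The cause of each change beyond the number of genes or cells entering was not tested.

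With G1 cells only, some list members changed direction against the other cells. In both libraries these were, as log2 ratios in WT and KI, Nkg7 (-0.31, -0.39), S1pr4 (-0.23, -0.48), Itgb7 (-0.60, -0.54), Izumo1r (-0.42, -0.83), Klf6 (-0.59, -0.27) and Ifi203 (-0.070, -0.35). In WT alone they were Il2rg (-0.11), Il27ra (-0.13), Jun (-0.070), Junb (-0.22), Dusp1 (-0.00087), Gimap6 (-0.25) and Ccna2 (1.19). In KI alone they were Ltb (-0.10), Foxo1 (-0.34), Irf7 (-0.44), Samhd1 (-0.021), S100a6 (-0.87), Ccnb1 (2.99), Hist1h1a (0.061) and Tyms (0.034).

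The share of DN4 cells in cluster 5 was 33.7% in WT and 24.4% in KI without clusters 3, 4 and 7, and 34.4% and 23.8% among clusters 2, 5 and 7. Among cells with any productive chain, 86.7% and 87.3% had a pair. With TRBV1 included, the added cysteine codon was in 13.6% and 13.6% of β contigs of cluster 5 and in 4.97% and 5.81% in clusters 3 and 4; the cause is the germline codon of TRBV1. At resolution 0.8 there were 7 sub-clusters in place of 3. Depth limits single genes: a gene at 20 CPM rests on about 30 UMIs in a genotype, and a count of 0 in all 324 WT cells allows, by 3 counts of the total, up to 0.926% of cells with a UMI.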
